A study of Mus musculus with 10 samples.

Results

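The comparison described here set intratumoral cells of L-fuc-supplemented mice against those of control mice at day 21 of treatment, gene by gene, inside 3 gates drawn on the transcript counts of single barcodes. A barcode marks 1 droplet, normally 1 cell, and a UMI marks 1 captured RNA molecule. Barcodes were used if they held at least 500 genes and had at most 10% of their UMIs from mitochondrial genes. The macrophage gate took barcodes with at least 10 UMIs of C1qa, C1qb and C1qc together, the genes of the complement component C1q. The other Ptprc-positive gate took the remaining barcodes with at least 1 UMI of Ptprc, which encodes the leukocyte antigen CD45. The tumor gate took barcodes outside the macrophage gate with at least 1 UMI of Sox10 and none of Ptprc. Sox10 is a transcription factor of the melanocyte and Schwann lineages. At day 21, 10 control and 19 L-fuc barcodes met both the macrophage and the tumor condition and were placed in the macrophage gate. The gates held 2380 barcodes, 1465 in the control library and 915 in the L-fuc library, out of 2755 that passed the filters at day 21 and 31156 that passed them in the 5 RNA libraries of the series.

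SW1 mouse melanoma cells were grown under the skin of the right flank of female C3H/HeJ mice that were 4 to 6 weeks old. After 10 days of growth by the labels, or a longer time by the study's methods, the mice drank either plain water (control) or water with L-fuc ad libitum. The L-fuc concentration was 100 mM by the treatment protocol and the study's methods, while the extract protocol has 100 nM. The extract protocol and the methods give 6 mice in each arm, and the treatment protocol gives 5. The methods do not say how many mice of an arm were taken at each time point. Tumors were pooled within an arm before the leukocyte sort and the droplet run, so each side of the comparison is 1 library from which single mice cannot be separated. No test between conditions is therefore possible, and all intervals below cover counting error only. The labels state that CD45+ cells were sorted and call the cells lymphocytes, whereas both libraries held Sox10-positive barcodes without Ptprc, and macrophages were the most numerous gate in both.

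L-fucose is a deoxyhexose that cells attach to the glycans of surface and secreted proteins. Cells make the donor GDP-fucose either from mannose or by salvage of free fucose, and fucosyltransferases such as Fut8 then transfer it. Tumor-associated macrophages derive in part from blood monocytes and present antigen to T cells, while plasma cells are the antibody-secreting end stage of B cells.

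The gates were not filled alike. Macrophages made up 788 of 1573 barcodes in the control library (50.1%, exact 95% binomial interval 47.6 to 52.6) and 411 of 1182 in the L-fuc library (34.8%, 32.1 to 37.6). The L-fuc share was 0.694 of the control share (0.615 to 0.783). This ratio moved with the C1q minimum, to 0.897 at 5 UMIs and to 0.547 at 20 UMIs, and was 0.949 when the gate asked for 2 C1q UMIs per 1000 UMIs, so the size of the difference depended on how the gate was cut. Other Ptprc-positive barcodes took 12.97% of the control library (204 barcodes, 11.3 to 14.7) and 17.1% of the L-fuc library (202 barcodes, 15.0 to 19.4). Tumor barcodes took 30.1% (473 barcodes, 27.8 to 32.4) and 25.6% (302 barcodes, 23.1 to 28.1), but with a minimum of 200 genes the shares were 24.53% and 24.76%.

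The largest relative difference lay outside the gates. Barcodes that met none of the 3 definitions were 108 (6.87%, 5.67 to 8.23) of the control library and 267 (22.6%, 20.2 to 25.1) of the L-fuc library. They were shallow, with a median of 1870.5 UMIs in the control library and 1297 in the L-fuc library. The median depth was 5737 and 7562 UMIs in the macrophage gate, 2824 and 2022.5 in the other Ptprc-positive gate, and 22260 and 24793 in the tumor gate, control first. The summed UMIs of a gate ran from 1282840 to 10645361 in the control library and from 1776008 to 7339613 in the L-fuc library. A total of 6 barcode sequences occurred in both day 21 libraries, 0.420% of the smaller one.

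For each gene the UMIs of a gate were summed and divided by the gate's total, giving UMIs per 1000000 (CPM). The change was the log2 ratio of L-fuc to control after adding 10 CPM to each side, and a gene is said here to have risen or fallen only where that ratio passed 2-fold. In such sums a change in the number of cells of a type cannot be told apart from a change in the RNA each cell holds. In macrophages 0.831% of 11426 genes rose and 0.14% fell. In the other Ptprc-positive gate 1.49% of 9272 genes rose and 4.02% fell, and the median over all genes was −0.20. In tumor barcodes 0.326% of 11670 genes rose and 0.0514% fell. The share of genes within 1.5-fold was 97.6% in macrophages, 80.6% in the other Ptprc-positive gate and 98.6% in tumor barcodes. At day 7 the same ratio of L-fuc to control gave a rise in 0.492% and a fall in 0.257% of the macrophage genes, 2.53% and 0.925% in the other gate, and 0.128% and 0.0926% in tumor barcodes.

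Immunoglobulin transcripts were the main difference in macrophages. Of the 95 genes that rose there, 57 were immunoglobulin genes. Igkc, the constant segment of the kappa light chain, was at 185 CPM in control and 3622 CPM in L-fuc macrophages, 19.6 times as high (exact 95% counting interval 18.6 to 20.7). Its UMIs were found in 8.88% of control and 59.1% of L-fuc barcodes of the macrophage gate, and 85.1% of the control UMIs came from 1 barcode. Ighg1, the constant region of IgG1, went from 1.56 to 1952 CPM, and Ighm, that of IgM, from 147 to 686 CPM. The genes of the antibody-secreting program rose beside them. Jchain, which joins polymeric IgA and IgM, went from 129 to 2428 CPM, and Mzb1, an endoplasmic reticulum chaperone partner of B lineage cells, from 27.1 to 554 CPM. Of 18 plasma cell genes measured in this gate 14 rose and none fell, with a median log2 ratio of 2.18, against 0.0059 over all genes tested, and their summed level went from 1042 to 12286 CPM. The list includes immunoglobulin constant genes, Igkc, Ighg1 and Ighm among them, so its count, median and sum partly repeat the immunoglobulin difference.

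These UMIs sat in a subset of barcodes. Barcodes in which immunoglobulin genes gave over 5% of the UMIs were 5 of 788 in the control macrophage gate (0.635%, 0.206 to 1.47) and 53 of 411 in the L-fuc gate (12.9%, 9.81 to 16.5), a ratio of 20.3 (8.18 to 65.2). The same class made up 5.39% of control and 38.1% of L-fuc barcodes in the other Ptprc-positive gate. It was 0 of 473 (which, taking 3 counts as the limit, allows a share of up to 0.634%) and 13 of 302 (4.30%) in the tumor gate. Outside the gates it was 0 of 108 (which allows up to 2.78%) and 90 of 267 (33.7%). In the immune gates of the day 0 and day 7 libraries it stayed at or below 0.642%. The L-fuc day 21 library was thus set apart in every gate, the tumor gate and the ungated barcodes included.

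**Figure D1:**
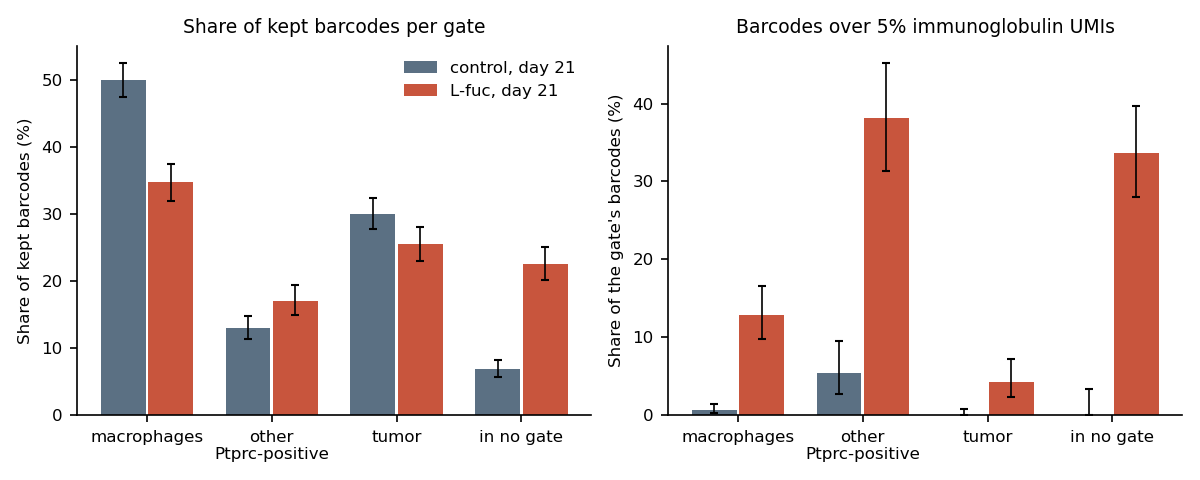
Bars give, with exact 95% binomial intervals, the share of barcodes that passed the filters falling in each gate (left, percent) and the share of each gate's barcodes with more than 5% immunoglobulin UMIs (right, percent), in the control and L-fuc libraries at day 21. The macrophage share was lower (34.8% against 50.1%) and the share in no gate higher (22.6% against 6.87%) in L-fuc, and immunoglobulin-rich barcodes were more frequent in L-fuc in every gate.

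Within the L-fuc macrophage gate most immunoglobulin-rich barcodes were small, and a few large ones held most of their UMIs. The 53 had a median of 1896 UMIs and 13 C1q UMIs, just above the gate's minimum of 10, but the 12 with a dominant kappa gene (median 85009 UMIs) held 69.4% of the class's UMIs. The 358 other barcodes of the gate had medians of 9207 UMIs and 100.5 C1q UMIs. Without the immunoglobulin-rich barcodes of either side, the log2 ratio of Igkc fell from 4.22 to 2.17, that of Jchain from 4.13 to 1.5 and that of Mzb1 from 3.93 to 1.10. For Ighm it changed from 2.15 to −0.37. Slpi, a secreted protease inhibitor, stood at 12.5 and 1296 CPM over the whole gate and at 11.8 and 14.1 CPM without them. The median of the plasma cell genes went from 2.18 to 0.66.

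A plasma cell makes a single light chain, so the kappa variable genes of a barcode tell whether its light chain RNA has a single source. Among barcodes with at least 20 kappa variable UMIs, 1 gene gave over 90% of them in 20 of 21 control barcodes. In the L-fuc library this held for 46 barcodes and failed for 211. The 46 had a median of 31211 UMIs, and the 211 with mixed kappa genes had a median of 1633 UMIs, of which 12.7% were immunoglobulin. In the L-fuc macrophage gate 13 barcodes had a dominant kappa gene (median 83372 UMIs and 601 C1q UMIs) and 55 had a mixture (1816 UMIs and 13 C1q UMIs). In the other Ptprc-positive gate the numbers were 31 and 52, in the tumor gate 2 and 13, and outside the gates 0 and 91. Large barcodes with a dominant kappa gene were present in both libraries, and small barcodes with a mixture of kappa genes were nearly all in the L-fuc library.

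**Figure D2:**
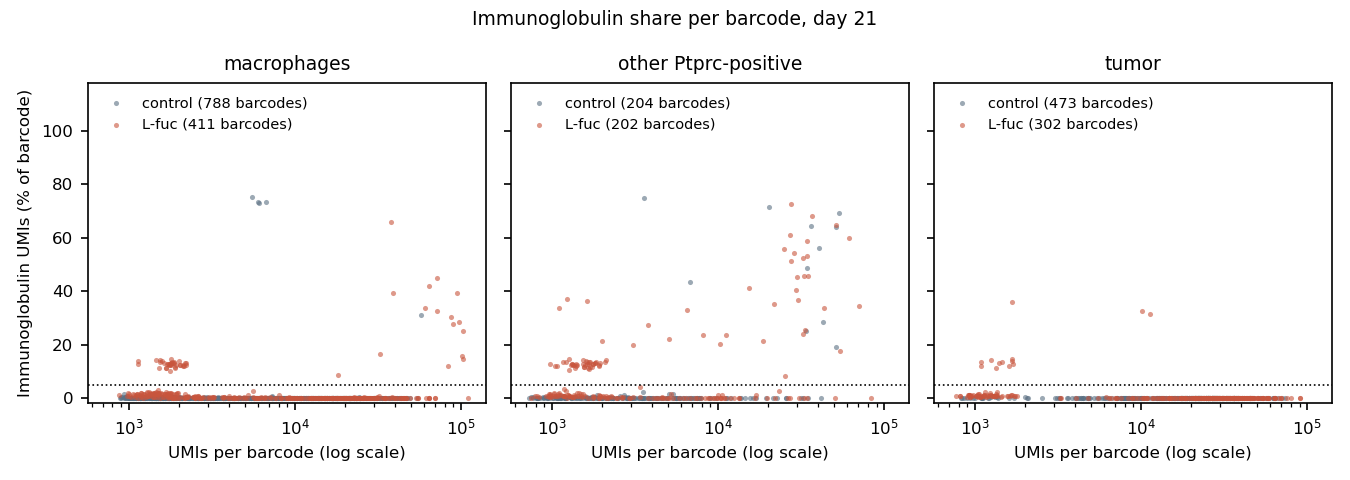
Each point is 1 barcode at day 21, placed by its UMIs (log axis) and the percent of them from immunoglobulin genes, in the 3 gates, with a dotted line at 5%. Small L-fuc barcodes near the median of 12.7% lie together in each gate, apart from the large barcodes with higher shares that both libraries hold in the immune gates.

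The variable genes also differed in identity. Igkv12-44 supplied 26.0% of all kappa variable UMIs in the L-fuc library and none in the control library. It went from 0 to 30790 UMIs in macrophages (at least 12765-fold higher, taking 3 UMIs as the floor for a count of 0), from 0 to 77701 UMIs in the other Ptprc-positive gate (at least 18708-fold) and from 0 to 194 UMIs in tumor barcodes (at least 93.8-fold). Its UMIs were in 37.7% of the L-fuc macrophage barcodes and in 35.1% of the L-fuc tumor barcodes. In the opposite direction, Igkv15-103 was at 5543 UMIs, or 720 CPM, in 79 control macrophage barcodes and at 0 in the L-fuc gate (at least 1486-fold lower). Without the immunoglobulin-rich barcodes the macrophage log2 ratio of Igkv12-44 went from 8.96 to 3.19 and that of Igkv15-103 from −6.19 to −1.21. In the control library Igkv1-88 led with 19.2% of the kappa variable UMIs. It was the leading gene of 1 barcode among those with at least 20 such UMIs. Of the called genes, 40 immunoglobulin genes in macrophages and 71 in the other Ptprc-positive gate drew most of their UMIs from 1 barcode. Immunoglobulin aside, the same held for 8 of 49 called genes in macrophages and 50 of 417 in the other Ptprc-positive gate.

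Apart from immunoglobulin, 38 macrophage genes rose (0.335% of 11331) and 11 fell (0.0971%). Of the 14 monocyte genes tested 4 rose and none fell, with a median of 0.54, and 0.55 without the immunoglobulin-rich barcodes. By summed level the same list went the other way in the other Ptprc-positive gate, where 1 of 14 rose and 4 fell. Its median there was −0.46 (0.06 without the immunoglobulin-rich barcodes). Ly6c2, a surface antigen of inflammatory monocytes, stood at 39.9 CPM in control and 244 CPM in L-fuc, a ratio of 6.12 (5.41 to 6.94). It was detected in 17 control and 57 L-fuc barcodes, but 1 barcode held 86.3% of the control UMIs, and plasma cells express Ly6c2 as well: its log2 ratio was 2.35 with and 1.34 without the immunoglobulin-rich barcodes. S100a6, a calcium-binding protein, went from 80.9 to 199 CPM and from 113 to 161 barcodes (log2 ratio 1.20, 0.66 with a C1q minimum of 5 UMIs). Fn1, fibronectin, went from 12.9 to 45.0 CPM, although its log2 ratio of 1.27 turned to −0.44 when the C1q minimum was 5 UMIs. Ccr2, the receptor that brings monocytes out of the marrow, was at 19.7 and 40.8 CPM (log2 ratio 0.77, short of 2-fold). Barcodes with a UMI of Plac8, Ly6c2 or Arg1 made up 11.04% of the control and 30.2% of the L-fuc macrophage gate, or 5.05% and 13.2% after each barcode was thinned to 1000 UMIs. By this count the other Ptprc-positive gate went the same way as macrophages, with 58 of 204 barcodes in control and 95 of 202 in L-fuc. After thinning its shares were 21.1% and 31.7%. Ly6c2 alone was detected in 23 control and 73 L-fuc barcodes of that gate. These counts include the immunoglobulin-rich barcodes, and the shares without them were not computed. In the L-fuc macrophage gate Ly6c2 was at 1145 CPM in the immunoglobulin-rich barcodes and at 22.7 CPM in the rest. The L-fuc values were 1856 and 178 CPM in the other Ptprc-positive gate. In tumor barcodes, which should lack Plac8, Ly6c2 and Arg1, the unthinned shares were 2.33% and 6.95%. After thinning they were 0.43% and 3.47%. The cause of the higher share in the L-fuc tumor gate was not tested.

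Of 22 genes of tissue macrophages and alternative activation 2 rose, none fell and 12 were below 0, with a median of −0.06. That median depended on the setting: it was 0.83 by the mean of the barcodes' own CPM. Over the genes that could be tested after thinning it was 1.01. Retnla, a secreted resistin-like protein, went from 158.5 to 406 CPM and from 24 to 86 barcodes, with 80.9% of the control UMIs in 1 barcode. Mgl2, a galactose-type lectin, went from 12.1 to 49.9 CPM. Arg1, arginase 1, was at 140 and 288 CPM (log2 ratio 0.99), and the chemokine genes Ccl6 and Ccl9 had log2 ratios of 0.98 and 1.02. By the mean of the barcodes' own CPM, Ccl6 was at 2.87, Arg1 at 1.02 and Ccl9 at 1.47. After thinning they were at 3.08, 1.44 and 1.34. Ccl8, a monocyte-attracting chemokine, differed little in summed level (1347 and 1602 CPM, log2 ratio 0.25) but was detected in 34.4% of control and 57.7% of L-fuc barcodes. Its log2 ratio was 1.51 by the mean of the barcodes' own CPM and 1.42 after thinning. Ccl8 was also detected in more barcodes of the L-fuc tumor gate, 8.94% against 1.69% in control. On summed UMIs Ccl9, Mgl2 and Retnla passed 2-fold among these genes. Without the barcodes that Scrublet marked as doublets Retnla was at 0.91 and Ccl9 at 0.98, and without its top barcode Ccl9 was at 0.65. Pf4, a platelet and macrophage chemokine, was at 79.4 and 37.3 CPM (−0.92), but at 0.84 by the mean of the barcodes' own CPM.

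Few macrophage genes on the lower side passed 2-fold. Asb2, a ubiquitin ligase subunit, fell from 148 to 65.6 CPM (log2 ratio −1.06, −0.77 after thinning). Fcgr4, an activating receptor for IgG, was at 476 and 251 CPM (log2 ratio −0.89). Oasl1 and Ifih1, both of the interferon response to viral RNA, had log2 ratios of −0.81 and −0.73. Klf2, a transcription factor that restrains inflammatory activation, was at 1090 and 626 CPM (−0.79). The chemokine genes Cxcl13 and Ccl4 were at 635 and 373 CPM (−0.75) and at 4441 and 2833 CPM (−0.65). By the mean of the barcodes' own CPM and after thinning, Oasl1 was at −1.32 and −1.64 and Cxcl13 at −1.07 in both. Fcgr4 was at −0.98 and −1.19, while Ifih1, Klf2 and Ccl4 stayed short of 2-fold in both. Among the 25 inflammatory genes tested 1 rose and none fell, with a median of −0.10, and among 29 interferon-stimulated genes none rose or fell, with a median of −0.14. Hbb-bs, a beta globin, was at 320 CPM in control and 2.58 in L-fuc, but 97.4% of the control UMIs lay in 1 barcode.

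Antigen presentation in macrophages did not pass 2-fold in any gene tested. The 17 class II genes had a median of −0.10, or 0.02 without the immunoglobulin-rich barcodes, and the 23 class I genes a median of −0.06. H2-K1, a classical class I heavy chain, was at 3278 and 4078 CPM (log2 ratio 0.31), and H2-Q4, a nonclassical one, at 1039 and 748 CPM (−0.47). H2-DMb1, a chain of the class II peptide editor, was at 106 and 127 CPM (0.25), and Ctsh, a lysosomal protease, at 1087 and 764 CPM (−0.50). Ctsl, another lysosomal protease, was at 464 and 731 CPM, with 41.9% of the L-fuc UMIs in 1 barcode.

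Genes of fucose metabolism did not pass 2-fold in any gate. The median was −0.10 over the 14 tested in macrophages, −0.33 over 10 in other Ptprc-positive barcodes and 0.02 over 13 in tumor barcodes. Fut8, which adds core fucose to N-glycans, was at 14.7 and 31.6 CPM in macrophages, a log2 ratio of 0.76 that went to 0.06 without the immunoglobulin-rich barcodes. Tsta3, the last enzyme of GDP-fucose synthesis from mannose, was at 33.9 and 23.9 CPM (−0.37), and Slc35c2, a Golgi transporter linked to Notch fucosylation, at 81.7 and 57.3 CPM (−0.45). In tumor barcodes Fcsk, the fucose kinase that begins salvage, was at 12.8 and 7.77 CPM (−0.36), and Fuca1, the lysosomal fucosidase, at 96.5 and 70.0 CPM (−0.41).

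**Figure D3:**
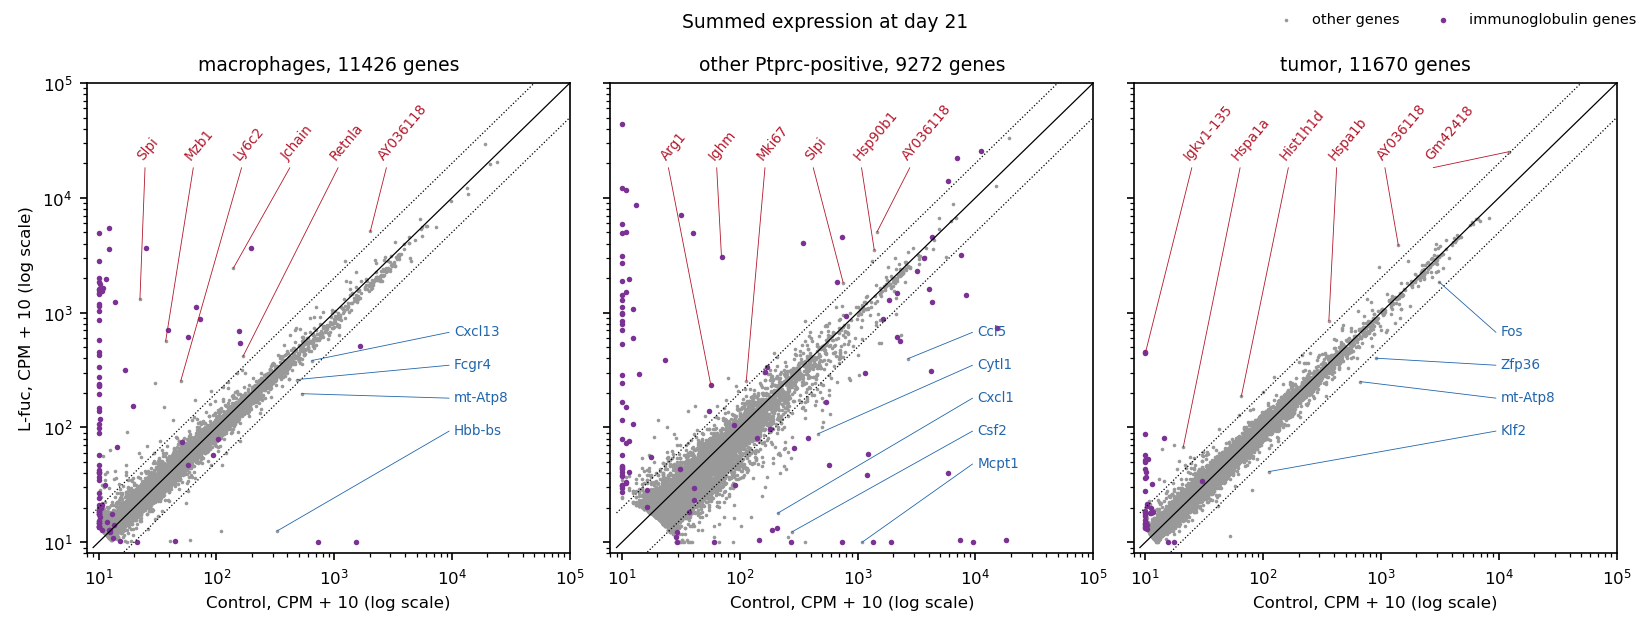
Each point is 1 tested gene, placed by its control CPM and its L-fuc CPM at day 21 (10 CPM added to each, log axes) in the 3 gates, 1 library per side, with immunoglobulin genes in purple and dotted lines at 2-fold. Many immunoglobulin genes line the left edge, at or near 0 in control. Others lie below the lower dotted line, 5 in macrophages and 32 in the other Ptprc-positive gate, which has the widest spread.

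In the other Ptprc-positive gate, immunoglobulin genes aside, 76 genes rose (0.83% of 9161) and 341 fell (3.72%). The imbalance depended on scaling, since centring the ratios on their median turned 138 risen and 373 fallen genes, immunoglobulin included, into 191 and 210. T cell genes were among those that fell. Of 13 T cell genes tested 6 fell and none rose, with a median of −0.98 against −0.20 over all genes. Their summed level went from 2005 to 833 CPM. Their median was −0.45 without the immunoglobulin-rich barcodes, a setting to which the −0.20 over all genes does not apply. Cd3e, a subunit of the T cell receptor complex, fell from 431 to 160 CPM and from 50 to 26 barcodes (log2 ratio −1.38, −0.83 without the immunoglobulin-rich barcodes). Cd4, the coreceptor of helper T cells, fell from 181 to 43.9 CPM and from 35 to 11 barcodes, and Cd8a, that of cytotoxic T cells, from 77.2 to 19.7 CPM and from 26 to 9 barcodes. Barcodes with a UMI of Cd3d, Cd3e or Cd3g were 67 of 204 (32.8%, 26.4 to 39.7) in control and 38 of 202 (18.8%, 13.7 to 24.9) in L-fuc, and 30.3% and 13.2% after thinning. In the tumor gate, which should lack these genes, the shares were 2.11% and 4.64%, at median depths of 22260 and 24793 UMIs. The totals of 204 and 202 include 11 and 77 immunoglobulin-rich barcodes, control first, and the shares without those barcodes were not computed.

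The T cell receptor libraries made from the same samples gave the same order. A receptor sequence was assigned to 44 of the 204 control barcodes in this gate (21.6%, 16.1 to 27.9) and to 16 of the 202 L-fuc barcodes (7.92%, 4.60 to 12.5). Over all kept barcodes there were 56 in control and 22 in L-fuc, each with a UMI of a CD3 gene. The macrophage gate held 11 and 6 of them, at median depths of 16743 and 40572 UMIs, and the tumor gate held 0 and 0. The totals of 204 and 202 again include the 11 control and 77 L-fuc immunoglobulin-rich barcodes.

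Cytotoxic and mast cell genes were lower as well. Ccl5, a chemokine of activated T and NK cells, fell from 2675 to 387 CPM (ratio 0.145, 0.133 to 0.157) and from 53 to 35 barcodes. Nkg7, a granule membrane protein, fell from 858 to 250 CPM and from 67 to 33 barcodes, and Klrd1, an NK receptor chain, from 226 to 36.6 CPM. Gzmb, granzyme B, had a log2 ratio of −0.88, with 46.9% of its control UMIs in 1 barcode. Of 9 NK genes 2 fell, with a median of −0.62 against −0.20 over all genes. Their median was −0.21 without the immunoglobulin-rich barcodes, a setting to which the −0.20 over all genes does not apply. Barcodes with a UMI of Gzma, Klrb1c or Ncr1, however, were 7.35% of control and 13.4% of L-fuc. In the tumor gate the latter share was 0 of 473 in control (which allows up to 0.634%) and 4.64% in L-fuc. Of 7 mast cell genes 5 fell, with a median of −1.99, among them Hdc, which makes histamine, from 159 to 27.0 CPM. The mast cell proteases Mcpt1 and Mcpt2, outside that list, had no UMI in L-fuc, and 1 control barcode held more than 99% of their control UMIs.

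Of 25 inflammatory cytokine and chemokine genes in this gate 12 fell and 5 rose, with a median of −0.90 (−0.60 without the immunoglobulin-rich barcodes). The chemokine genes Ccl7 and Ccl2 rose, with log2 ratios of 1.92 and 1.11, though Ccl2 was at −0.03 after thinning. Csf2, the cytokine GM-CSF, fell from 265 to 2.25 CPM and from 14 to 2 barcodes, and Ccl1, a T cell and mast cell chemokine, from 246 to 1.13 CPM and from 15 to 2 barcodes. Cxcl1, a neutrophil attractant, fell from 200 to 7.88 CPM, and Osm, oncostatin M, from 238 to 33.8 CPM. The log2 ratio of Cxcl1 was −3.55, and −1.58 with a C1q minimum of 2 per 1000 UMIs. Among 29 interferon-stimulated genes 6 fell, none rose and 12 were above 0. Their median was −0.30 against −0.20 over all genes. It was −0.04 without the immunoglobulin-rich barcodes, where the −0.20 over all genes does not apply. Rsad2, an antiviral enzyme, was at 146 and 15.2 CPM. Isg15, a ubiquitin-like modifier, was at 228 and 54.6 CPM (log2 ratio −1.88, −0.66 with a C1q minimum of 2 per 1000 UMIs). The inhibitory receptor gene Havcr2 fell from 117 to 37.7 CPM and from 46 to 19 barcodes. Checkpoint and costimulatory genes as a list had 1 risen and 1 fallen of 14 tested in this gate. The median of that list was −0.07, and 0.23 without the immunoglobulin-rich barcodes.

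B lineage and proliferation genes lay on the upper side of the same gate. The 8 B cell genes tested had a median of 0.68 with none past 2-fold, and 1.02 without the immunoglobulin-rich barcodes. Of 25 cell cycle genes 6 rose and none fell, all 25 were above 0, and the median was 0.61, or 1.10 without the immunoglobulin-rich barcodes. Mki67, a marker of cycling cells, rose from 104 to 246 CPM and from 30 to 54 barcodes, but its log2 ratio of 1.17 was 0.49 by the mean of the barcodes' own CPM and 0.11 after thinning. Ccr7, the receptor that guides dendritic cells and lymphocytes to lymph nodes, rose from 32.0 to 144 CPM in 6 and 13 barcodes, with a log2 ratio of 1.88 that was 0.91 after thinning. Ccl8 rose from 10.1 to 105 CPM, a ratio of 10.4 (5.93 to 19.9), in 9 and 48 barcodes. The rise of Ccl8 depended on the C1q cut: its log2 ratio of 2.52 was 0.56 with a minimum of 5 C1q UMIs and −0.28 with 2 per 1000 UMIs. Tumor barcodes with a UMI of Ccl8 were 8 of 473 in control and 27 of 302 in L-fuc. The unfolded protein response, which secretory cells use, had 3 risen and 1 fallen of 16 and a median of 0.60, and −0.02 without the immunoglobulin-rich barcodes. Hsp90b1, an endoplasmic reticulum chaperone, rose from 1376 to 3498 CPM (log2 ratio 1.34, −0.07 without those barcodes).

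**Figure D4:**
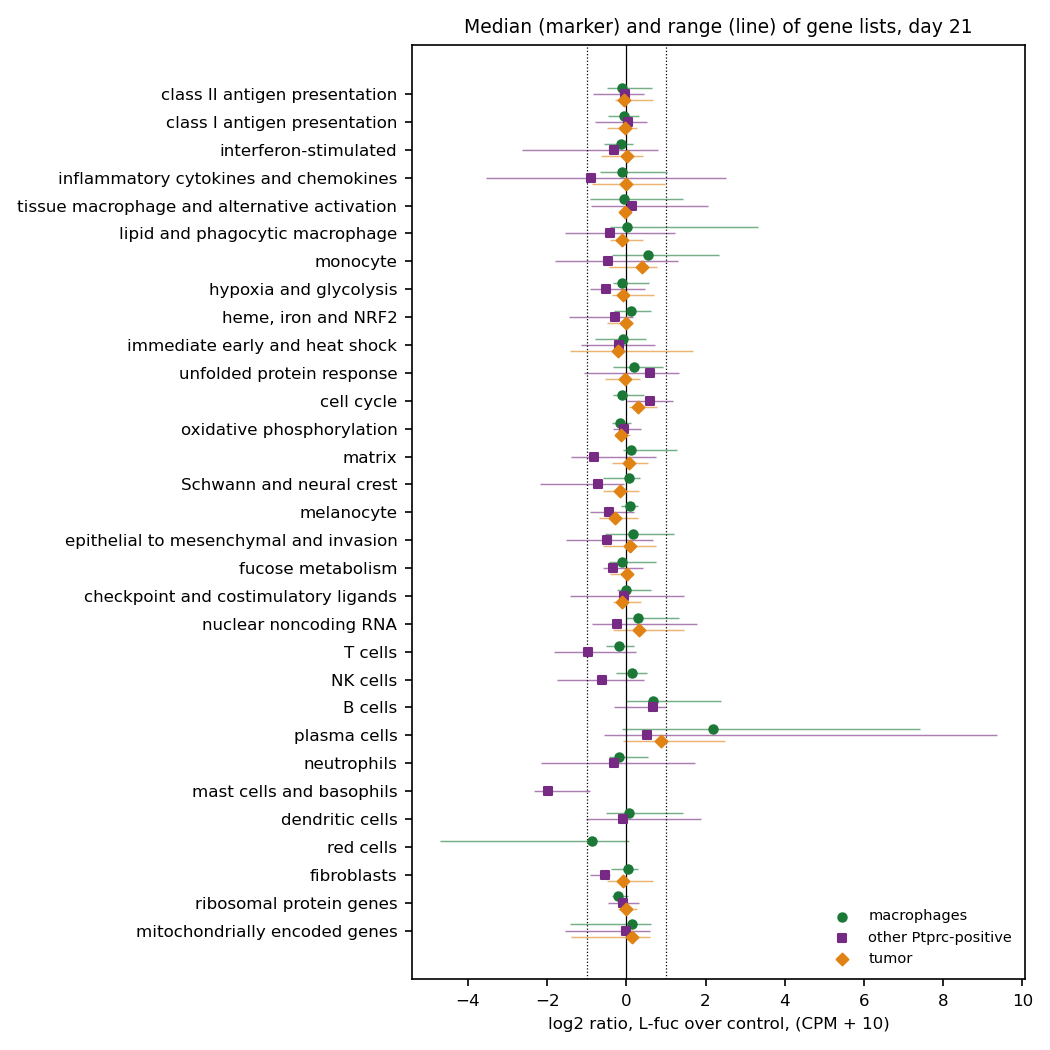
Median (markers) and range (lines) over the tested genes of each list of the log2 ratio of L-fuc to control in the 3 gates at day 21, 1 library per side, for lists with at least 5 tested genes in a gate, with dotted lines at 2-fold. Plasma cell genes, a list that includes immunoglobulin constant genes, lay highest in macrophages (median 2.18). Mast cell and T cell genes lay low in the other Ptprc-positive gate (medians −1.99 and −0.98).

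Tumor barcodes had the fewest changed genes: immunoglobulin aside, 22 rose (0.189% of 11633) and 6 fell (0.0516%). Members of the immediate early and heat shock list were among them. Of the 15 immediate early genes tested, which are transcribed within minutes of a stimulus, 13 were below 0 and 2 fell, with a median of −0.46, while Atf3 was at 0.75 and none rose. Zfp36, an RNA-binding protein that destabilises cytokine transcripts, fell from 897 to 391 CPM and from 72.3% to 59.6% of the barcodes (38.8% and 24.0% after thinning). Klf2 fell from 101 to 31.2 CPM, though its log2 ratio of −1.43 was −0.87 by the mean of the barcodes' own CPM. Fos was at 3099 and 1842 CPM (log2 ratio −0.75), Jun at 1435 and 882 CPM (−0.70), Junb at 1116 and 697 CPM (−0.67) and Jund at 834 and 503 CPM (−0.72). For Fos, Zfp36 and Klf2 the control day 21 library was the highest of all 5: the day 0, control day 7 and L-fuc day 7 libraries held 1715, 770 and 769 CPM of Fos, and 345, 131 and 123 CPM of Zfp36. All 3 genes were nearer to their day 0 level in the L-fuc library than in the control library.

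The inducible HSP70 chaperone genes went the other way in tumor barcodes. Of 9 heat shock genes all were above 0 and 2 rose, with a median of 0.59. Hspa1b rose from 351 to 840 CPM, a ratio of 2.39 (2.30 to 2.49). Hspa1a rose from 10.99 to 57.4 CPM, a ratio of 5.22 (4.24 to 6.46), but its log2 ratio of 1.68 was 0.80 by the mean of the barcodes' own CPM and 0.71 after thinning, short of 2-fold. Barcodes with a UMI of either gene were 245 of 473 (51.8%, 47.2 to 56.4) in control and 227 of 302 (75.2%, 69.9 to 79.9) in L-fuc, and 20.1% and 42.4% after thinning. The day 0, control day 7 and L-fuc day 7 libraries held 360, 314 and 385 CPM of Hspa1b and 19.1, 27.6 and 18.4 CPM of Hspa1a, so L-fuc at day 21 was the highest of the 5 for both, and control at day 21 the lowest for Hspa1a. The co-chaperones Hsph1 (242 and 436 CPM, log2 ratio 0.83) and Bag3 (72.1 and 134 CPM, 0.81) lay on the same side without passing 2-fold. In macrophages Hspa1a was at 794 and 994 CPM (0.32) and Hspa1b at 617 and 882 CPM (0.51), and the share of barcodes with either was 45.1% in control and 72.5% in L-fuc (29.8% and 49.8% after thinning). Outside the tumor gate 14 of the 15 immediate early genes were below 0 in each immune gate, and 9 of the 9 heat shock genes in macrophages and 8 in other Ptprc-positive barcodes were above 0, none past 2-fold upwards. In the other Ptprc-positive gate 2 immediate early genes fell, and their median was −0.50 against −0.20 over all genes. By share of barcodes with a UMI, L-fuc macrophages were higher for Fos (63.8% in control, 77.4% in L-fuc) and Zfp36 (68.9% and 78.1%). After thinning these shares were 45.0% and 56.1% for Fos and 53.2% and 57.6% for Zfp36. In other Ptprc-positive barcodes the unthinned shares were 50.5% and 60.9% for Fos and 58.8% and 54.0% for Zfp36.

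Hspa1a and Hspa1b are neighbouring near-identical copies on the minus strand of chromosome 17, at chr17:34969190-34972156 and chr17:34956436-34959238 of GRCm38, so the split of UMIs between them is uncertain. The 250 bases before the RefSeq start of each gene (GRCm38.p6, minus strand, at chr17:34972157-34972406 for Hspa1a and chr17:34959239-34959488 for Hspa1b) are shown because these members rose together and have almost the same promoter. Capitals mark the match to GAANNTTC, the core of the heat shock element, searched on both strands, which this palindromic pattern makes the same search.
Hspa1a: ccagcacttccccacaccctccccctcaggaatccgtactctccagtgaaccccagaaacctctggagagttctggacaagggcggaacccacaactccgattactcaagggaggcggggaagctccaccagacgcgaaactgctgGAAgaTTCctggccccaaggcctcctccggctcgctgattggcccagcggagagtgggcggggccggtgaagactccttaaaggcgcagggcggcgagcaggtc
Hspa1b: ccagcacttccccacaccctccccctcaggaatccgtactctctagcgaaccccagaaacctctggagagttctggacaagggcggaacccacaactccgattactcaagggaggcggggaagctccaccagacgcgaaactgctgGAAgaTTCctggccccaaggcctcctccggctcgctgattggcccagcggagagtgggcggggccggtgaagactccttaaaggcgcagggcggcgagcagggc
The match began 104 bases before the start in both, and 247 of the 250 bases were the same. In windows from 250 bases before to 50 after a start, GAANNTTC was present in 7.95% of 27025 genes. It was present in 5 of the 6 heat shock genes of the list that had a window (Dnaja1, Hspa1a, Hspa1b, Hspe1 and Hsph1) and in 1 of 13 immediate early genes (Jun).

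**Figure D5:**
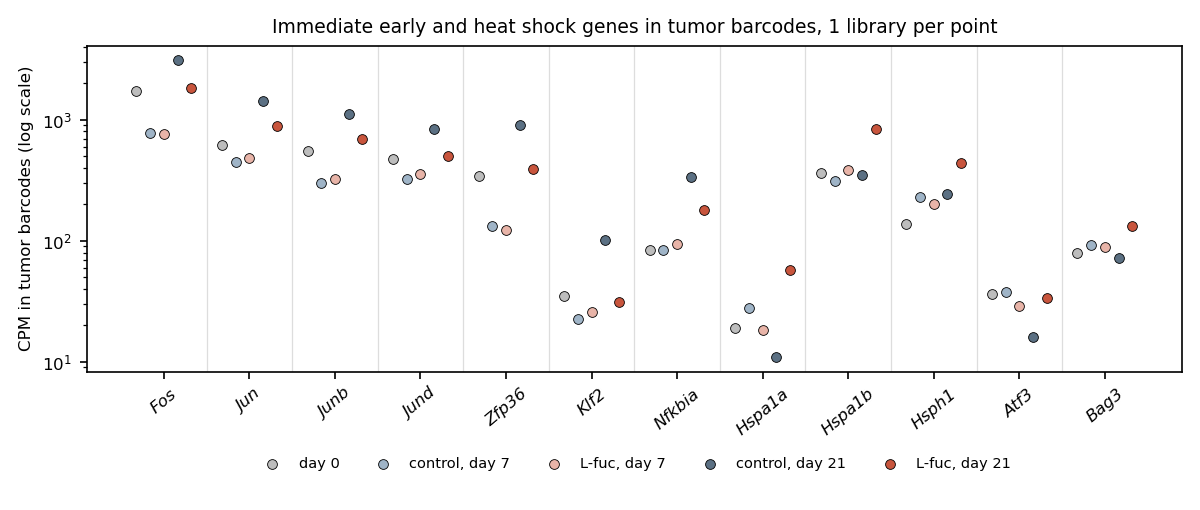
CPM (log axis) of immediate early and heat shock genes in the tumor gate of the day 0, day 7 and day 21 libraries, 1 point per library and no error bars. Fos and Zfp36 were lower and Hspa1a and Hspa1b higher in L-fuc than in control at day 21.

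Of the 45 histone genes tested in tumor barcodes, taken by symbol after their values were seen, 7 rose and none fell, and 44 were above 0. The linker histone gene Hist1h1d rose from 55.3 to 177 CPM, a ratio of 3.19, and Hist1h2ap, a core histone gene, from 113 to 267 CPM. All 25 cell cycle genes were above 0, with a median of 0.31 and none past 2-fold, and Top2a, the topoisomerase that untangles replicated DNA, was at 287 and 421 CPM (0.54). Barcodes with a UMI of Mki67 or Top2a were 46.7% of control and 58.9% of L-fuc, and 18.2% and 33.7% after thinning. Melanocyte genes had a median of −0.30 over 6 genes, with Mitf, the lineage regulator, at a log2 ratio of −0.53 and Tyrp1, a pigment enzyme, at −0.70. Class I (22 genes) and class II (14 genes) antigen presentation had medians of −0.03 and −0.06 with none past 2-fold. Ciita, the class II transactivator, was at 30.1 and 44.1 CPM (0.43).

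A few genes differed in the same direction in all 3 gates. Of 8322 genes tested in each, 14 rose in all and 1 fell in all. Of the 14, 11 were immunoglobulin genes and the others were Gm20628, Lars2 and AY036118. AY036118, which overlaps ribosomal RNA sequence, was at 2016 and 5089 CPM in macrophages, 1455 and 5055 CPM in other Ptprc-positive barcodes and 1394 and 3849 CPM in tumor barcodes. Lars2, a mitochondrial leucyl-tRNA synthetase, had log2 ratios of 1.18, 1.09 and 1.37 in the same order. The gene that fell was mt-Atp8, a mitochondrially encoded subunit of ATP synthase, at 518 and 187, 557 and 183, and 656 and 241 CPM. The L-fuc to control log2 ratio at day 7 was 0.83, 0.77 and 0.76 for AY036118 and −0.32, −0.35 and −0.12 for mt-Atp8. The median mitochondrial share of UMIs was 1.37% and 2.02% in macrophages, 2.16% and 3.42% in other Ptprc-positive barcodes and 2.14% and 2.78% in tumor barcodes, control first.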

How the data were processed

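The deposited gene by barcode matrices of droplet scRNAseq hold UMI counts as the authors deposited them, not normalised. By the submitters' processing notes they were made with Cell Ranger 3.0 on mm10, with Seurat 4.0 used later, while the matrix header names Cell Ranger 7.1.0. T cell receptor tables list contigs by barcode. All 32285 genes and the day 21 pair of RNA libraries entered the comparison, with the day 0 and day 7 libraries set beside it.

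Counts were summed per gate in Python 3.11.15 with numpy 2.4.6, scipy 1.17.1, pandas 2.3.3 and matplotlib 3.10.9. A gene was tested where at least 10 UMIs were expected in the shallower side. C1qa, C1qb, C1qc, Ptprc and Sox10, which define the gates, were left out. Change was log2 of the CPM ratio after adding 10 CPM, which understates the change of low genes, and a change of at least 2-fold was called. No p-value was computed. Shares carry exact Clopper-Pearson intervals, CPM ratios exact conditional intervals and a count of 0 a floor of 3 counts. Thinning drew 1000 UMIs per barcode and left out shallower barcodes. Barcodes were also counted by UMIs of short marker sets named in the text. Immunoglobulin genes were taken by symbol. Scrublet (scanpy 1.11.5) marked 2 control and 3 L-fuc barcodes, which stayed in. Gene positions were those of GENCODE and promoters those of RefSeq, both on GRCm38.

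Genes named were, per gate and with a mean of at least 100 CPM, the 12 highest and 12 lowest, then the highest and lowest 4 of each list and up to 10 genes past 2-fold in all 3 gates. The 12 highest and lowest apart from immunoglobulin were added after the values were seen. The members and lists were chosen with earlier results of these data known. On simulated counts the summing found 100 of 100 genes changed 4-fold in each gate, and 0 of 100 genes changed 1.41-fold passed 2-fold. The simulated counts held counting error alone, without variation between barcodes, mice or libraries, and the changed genes had at least 100 CPM. They check the arithmetic and cannot show whether a call would recur in other mice. Alternatives changed the gates, filters, pseudocount and scaling.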

Additional observations from a re-analysis of the deposited data

Results flagged for a closer look

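Each of the following is a single pair of libraries, and none of the differences was tested. The ratio of the L-fuc to the control macrophage share was 0.694 at day 21 and 2.32 at day 7, in opposite directions at the 2 time points. Over all barcodes that passed the filters at day 21 the median depth was 8201 UMIs in control and 2890.5 in L-fuc. The day 21 ratio moved with the C1q minimum, as given above, and no other minimum was tried at day 7. In the other Ptprc-positive gate the median log2 ratio of the T cell genes was −0.976 at day 21 and 1.42 at day 7. The median of the mast cell and basophil genes in that gate was −1.99 at day 21 and 2.18 at day 7. Outside the gates, which the comparison does not use, 33.7% of the L-fuc day 21 barcodes had over 5% immunoglobulin UMIs, against 0 of 108 in control.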

How the results depend on the processing

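No paired analysis was possible because each group is 1 pooled library, and for the same reason no replicate could be left out. Leaving out the top barcode of each gene and a Scrublet filter at the usual doublet rate were chosen after seeing the data. Of the alternative log2 ratios of named genes 2942 stayed within the counting interval or 0.1 of the value reported, 1190 moved further, and 26, of genes past 2-fold and listed here, changed sign. Among genes short of 2-fold, counted with the former, 15 changed sign, in 10 of 79 genes. Of the list medians 1596 were unmoved and 168 moved. The macrophage share ratio (0.694) was 0.897, 0.547 and 0.949 with a C1q minimum of 5 UMIs, 20 UMIs and 2 per 1000 UMIs. The tumor share ratio (0.850) was 1.01 with a minimum of 200 genes and 0.707 without barcodes of both lineages. Genes past 2-fold in macrophages (111) numbered 395 and 62 with pseudocounts of 1 and 50 CPM, 230 by the mean of barcode CPM, 192 after thinning and 59 without immunoglobulin-rich barcodes. In the other Ptprc-positive gate (511) they were 1219 and 149 with those pseudocounts, 1561 by the mean and 256 with at least 50 expected UMIs, and in tumor barcodes (44) they were 176, 11, 105 by the mean and 135 after thinning, where 48.9% were higher. In the other Ptprc-positive gate centring on the median gave 191 higher and 210 lower in place of 138 and 373, and totals without ribosomal, mitochondrial, hemoglobin and immunoglobulin genes 210 and 355. Signs turned for Fn1 in macrophages (−0.439, C1q minimum 5) and, in the other Ptprc-positive gate, for Ccl8 (−0.28, C1q per 1000 UMIs); for Cytl1 0.78, Col5a2 0.759, Bgn 0.77 and Sparc 1.39 without barcodes of both lineages; for Cytl1 0.783, Col5a2 0.82, Bgn 1.19, Postn 0.605 and Sparc 1.18 by the mean; for Cytl1 0.0469, Ccl2 −0.0274, Col5a2 0.512, Bgn 1.11, Postn 1.38 and Sparc 0.858 after thinning; and for Retnlg −0.436 without its top barcode. Without immunoglobulin-rich barcodes they turned for Igkv8-19 (1.29) and Ighm (−0.373) in macrophages and for Ighv7-3 (2.96), Ighv14-1 (−0.151), Creld2 (−0.0897), Slpi (−2.04) and Hsp90b1 (−0.0664) in the other gate. Igkv8-19 in macrophages was 1.17 without its top barcode. The cause was not tested. The other Ptprc-positive gate, the shallowest, had the widest spread of ratios and the least precise values.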

Other observations

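Of the nuclear noncoding RNA list 1 of 8 genes rose in macrophages, 1 of 7 in other Ptprc-positive barcodes (median log2 ratio −0.24) and 2 of 7 in tumor barcodes, and none fell. The summed level of the list was 27356 CPM in control and 42175 CPM in L-fuc macrophages (median log2 ratio 0.30 over 8 genes), and 21249 and 36963 CPM in tumor barcodes (0.32 over 7 genes, −0.02 by the mean of the barcodes' own CPM). Gm42418, which overlaps ribosomal RNA sequence, rose in tumor barcodes from 12083 to 25163 CPM and made up most of the difference between the tumor sums. At day 7 the median of the list was −0.39 in macrophages and −0.32 in tumor barcodes.

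In tumor barcodes the glycolytic genes Gapdh and Eno1 were at 1702 and 2785 CPM and at 629 and 1020 CPM (log2 ratios 0.71 and 0.69), while the 27 hypoxia and glycolysis genes tested had a median of −0.09 with none past 2-fold. Matrix genes in the other Ptprc-positive gate had 5 fallen of 17 and a median of −0.81, which was 0.86 when each barcode was thinned to the same number of UMIs.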
